A study of Arabidopsis thaliana with 9 samples.

Results

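The transcriptome of Arabidopsis thaliana plants without the arginine methyltransferases PRMT4A and PRMT4B was compared with that of wild type by sequencing of poly(A) RNA. The comparison takes 6 of the 9 libraries of the study by their genotype labels, 3 of wild type (WT) and 3 of the prmt4a;4b double mutant. Whole plants of the Columbia ecotype were grown on Murashige and Skoog agarose at 22 °C in continuous light, taken as a pool of tissues, and harvested after 15 days according to the labels and after 10 days according to the methods of the study. The mutant joins by crossing 1 T-DNA insertion allele of each gene, SALK_033423 for prmt4a and SALK_097442 for prmt4b, so that each gene is represented by a single insertion line. No source says that the replicates came from separate sowings, and the p-values below therefore measure only the spread between these libraries. Reads were counted without strand over 33602 genes, of which 20844 had a mean of at least 10 reads in either genotype and were tested. Splicing was read from 4080 of 7973 annotated alternative splicing bins (AS bins, the stretches of a gene that some of its transcripts include and others leave out). It was also read from 10996 of 120717 constitutive introns. Both needed enough reads and, in either genotype, a read density over 0.05 of that of their gene. Introns spliced almost fully were thus left out, and the shares of introns below are of those with some retention.

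PRMT4A and PRMT4B are the plant relatives of the animal enzyme CARM1. They are type I enzymes, which place both methyl groups on the same nitrogen of an arginine, on histone H3 and on proteins that bind RNA, whereas PRMT5 is a type II enzyme that places 1 methyl group on each of both nitrogens. In Arabidopsis the pair acts redundantly and is known for its part in flowering time, through the repressor gene FLOWERING LOCUS C. In animals CARM1 methylates splicing factors and poly(A)-binding proteins, and pre-mRNA splicing is one of the processes in which the enzyme is studied.

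The libraries held 25029646 to 31835579 reads in wild type and 28137176 to 29706081 in prmt4a;4b. The 10 most abundant genes took 13.8% to 15.3% of the reads in wild type and 19.5% to 23.4% in the mutant, and plastid genes took 0.323% to 0.58% against 0.869% to 3.94%. Scaling factors (TMM) were 1.05 to 1.16 in wild type and 0.859 to 0.995 in the mutant, and the log2 changes below are relative to the median gene: on unscaled library totals the median gene was lower in prmt4a;4b by 0.27 on the log2 scale. Summed TPM values (reads per base of gene, scaled to a fixed total) were 187402 to 196054 against 210843 to 224619 for 18 leaf photosynthesis markers and 122 to 176 against 117 to 162 for 14 root markers. They were 124 to 221 against 50.6 to 61.0 for the seed storage markers, of which 5 of 6 tested fell, and 6.42 to 8.63 against 2.1 to 3.45 for 9 floral organ markers, of which SEP3 (log2 change -1.91) carried most reads and 6, AP3 and AG among them, had too few reads to be tested. The part of these shifts in the results below was not tested. In whole plants fewer cells of a type and less RNA per cell cannot be told apart.

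Both mutated genes were depleted in every mutant library. PRMT4A had 302, 324 and 313 normalized reads in the wild-type libraries and 30.6, 64.9 and 34.2 in prmt4a;4b. PRMT4B had 372, 339 and 367 normalized reads in the wild-type libraries and 16.5, 31.9 and 19.4 in prmt4a;4b. The groups stood far apart for both genes, with a log2 change of -2.84 ± 0.25 (SE, n = 3 libraries per genotype) for PRMT4A (adjusted p = 5.29e-05, edgeR quasi-likelihood test with Benjamini-Hochberg adjustment, as for every adjusted p below) and of -3.97 ± 0.23 for PRMT4B (adjusted p = 5.70e-06). The remaining reads lie on transcripts of the disrupted genes and do not show whether protein was made. None of the other 7 methyltransferase genes tested was called, and their log2 changes ran from -0.37 for PRMT1A to 0.37 for PRMT1B, with PRMT5 at 0.28.

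Across all genes tested, 2878 rose and 2494 fell in prmt4a;4b (adjusted p below 0.1 and an absolute log2 change over 0.58), which is 13.8% and 12.0% of the 20844 genes, or 25.8% together. Most changes were moderate, with a median log2 change of 0.87 among the rises and -0.82 among the falls, while 1017 rises and 703 falls went beyond 1 and 114 and 57 beyond 2. The libraries of the 2 genotypes did not overlap for 47.1% of all genes. Of the calls, 3250 were kept whichever library was left out, and the balance depended on the mutant libraries: without mutant library 2 there were 2572 rises and 2613 falls, and without library 3 there were 2366 and 2534. On unscaled library totals, the balance turned to 1289 rises and 5308 falls.

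The deepest fall of all was in MRD1 (AT1G53480), a gene named for its response to altered methionine metabolism, with 384, 390.0 and 419 normalized reads in the wild-type libraries and 7.07, 0 and 4.56 in prmt4a;4b. All mutant libraries were below 10 reads, a log2 change of -6.71 ± 0.38 (adjusted p = 5.70e-06). HEI10 (AT1G53490), a RING-type protein known for its part in meiotic crossover formation, had 477, 449 and 497 normalized reads in the wild-type libraries and 65.96, 19.95 and 29.7 in prmt4a;4b. The 2 genes lie on opposite strands of chr1 and overlap by 1446 bases, and with counting that ignores strand their reads cannot be told apart there. AT5G24240, a gene for a phosphatidylinositol 4-kinase gamma-like protein, fell from 224, 189 and 157 to 8.25, 14.97 and 6.85 normalized reads, and AT5G24250, which overlaps it by 455 bases, fell too (log2 change -4.42, adjusted p = 0.00261). The other large falls were in AT1G68250 (-4.29), AT1G04560 (-3.66), AT4G12490 (-2.52), AT5G44310 (-2.52) and the cruciferin gene CRC (-2.59), which encodes a seed storage protein.

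Among the largest rises, AT4G08093 had no read in any wild-type library and 58.9, 59.9 and 49.1 normalized reads in the mutant, at least 19.96-fold higher against a floor of 3 reads per library. AT1G15405, a gene annotated as encoding no protein, had 84.6, 85.3 and 135 normalized reads in the wild-type libraries and 530.1, 261 and 1004 in prmt4a;4b, and the groups did not overlap (log2 change 2.57 ± 0.39). AT2G01021 rose from 3638, 2929 and 5755 to 21315, 10928 and 49829 normalized reads. The gene before it, AT2G01020, rose too (log2 change 1.08, adjusted p = 0.00102). In AT1G15405 and AT2G01021 mutant library 3 was highest and library 2 lowest, the order of their plastid share, and the part of the latter was not tested. Kept whichever library was left out were also AT3G18250 (log2 change 2.56 ± 0.45), AT1G19320, a thaumatin-family gene (2.44 ± 0.44), AT1G72416 (2.96 ± 0.58) and AT2G38240 (2.92 ± 0.83). A further 3 genes rested on a single library. DIN11, a dark-inducible oxygenase gene, had 1061, 55.9 and 58.2 normalized reads in the mutant against 47.3, 27.6 and 26.5, and without mutant library 1 its log2 change dropped from 3.52 to 0.74 and was no longer called. HSP17.4, a small heat shock protein gene, was lost without the same library, and CYP82C2 (153, 10.97 and 6.85 normalized reads in the mutant) was not tested without it.

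**Figure D1:**
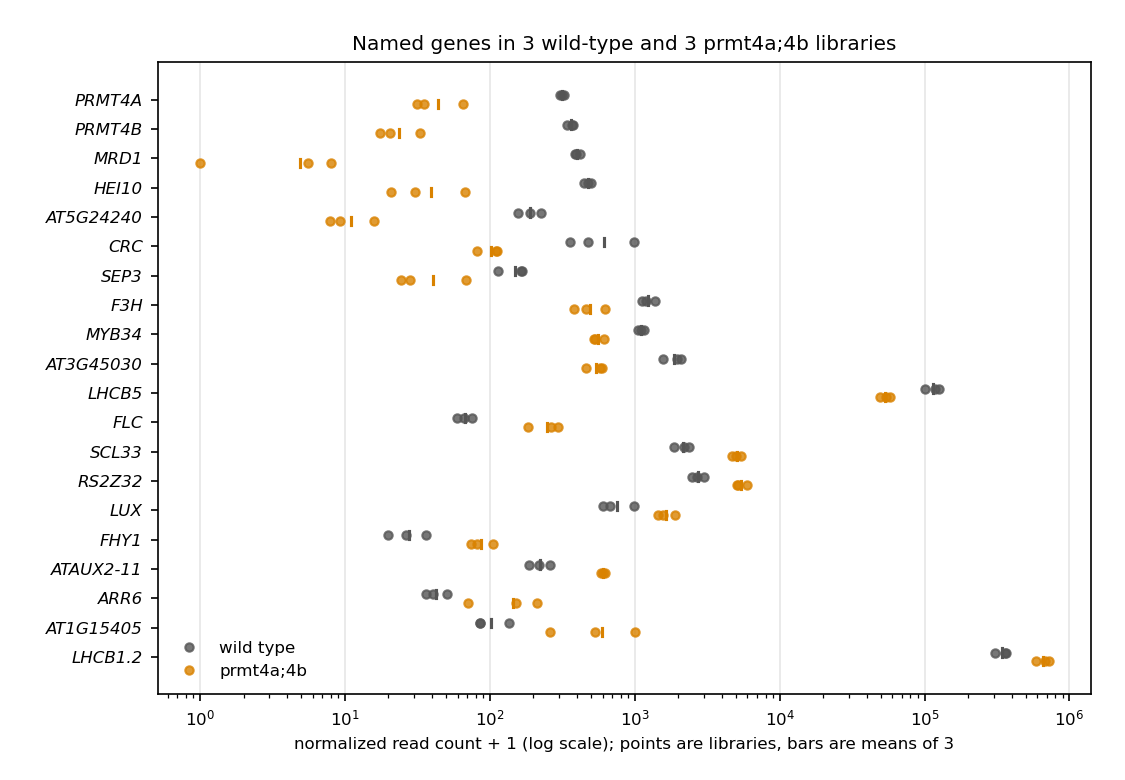
Normalized read count plus 1, on a log axis, of 20 named genes in the 3 wild-type (grey) and 3 prmt4a;4b (orange) libraries; points are libraries and short bars the means of 3. PRMT4A, PRMT4B, MRD1 and HEI10 are far lower in every mutant library. In none of the genes shown do the genotypes overlap, which was a condition for naming the largest rises and falls.

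Genes for serine/arginine-rich splicing factors rose in larger part than other genes, and most other splicing regulators were not called. Of 20 tested genes for serine/arginine-rich (SR) proteins, which bind exons and help to choose splice sites, 12 rose, none fell and the median log2 change was 0.81, against 13.8% rising, 12.0% falling and a median of -0.00 over all genes. SCL33, an SC35-like factor, had 2201, 1871 and 2380.2 normalized reads in the wild-type libraries and 4728, 4982 and 5419.6 in prmt4a;4b. RS2Z32, of the plant-specific RS2Z subfamily, rose from 2687, 2477 and 3029 to 5185, 5092 and 5929.6 normalized reads, and RS41 from 3815, 3652 and 3976 to 6707, 6598 and 7017. In each of these the lowest mutant library was more than 1.5 times the highest wild-type library, with log2 changes of 1.23 ± 0.12 (adjusted p = 9.88e-05), 0.98 ± 0.12 (0.000210) and 0.83 ± 0.11 (0.000284). The other SR genes that rose were RS2Z33 (1.01), SCL30A (0.95), RSZ21 (0.93), SR45 (0.93), SR45a (0.84), RSZ22 (0.84), SR34a (0.82), SR34b (0.80) and RS31 (0.64, lost without mutant library 1). On unscaled library totals 6 of the 20 rose, none fell and the median was 0.54. Of 18 genes for hnRNP-like proteins and U2AF subunits, which bind RNA in and around introns, 3 rose and none fell (16.7% and 0.0%, near the share over all genes, median 0.16; 1 and 1 on unscaled library totals): RBP47B (log2 change 0.91 ± 0.12) and RBP45B (0.82 ± 0.12), related RNA-binding proteins, and U2AF35B (0.58 ± 0.12), which lost its call without wild-type library 1 or 2 or mutant library 3. Among 14 relatives of proteins that CARM1 methylates in animals, only the poly(A)-binding protein gene PAB2 passed (none rose and 1 fell on unscaled library totals), from 15842, 14352 and 17857 to 27501, 25311 and 30985 normalized reads (log2 change 0.80 ± 0.14).

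Of 21 circadian clock genes, 6 rose and 2 fell (28.6% and 9.52%, beside 13.8% and 12.0% of all genes), but on unscaled library totals 3 rose and 5 fell. LUX, a MYB protein of the evening complex, had 602, 677 and 981 normalized reads in the wild-type libraries and 1449, 1896 and 1567 in prmt4a;4b. No library overlapped, and the log2 change was 1.12 ± 0.18 (adjusted p = 0.000661). CHE, a TCP factor that represses the morning gene CCA1, rose by 0.89 ± 0.12, and ELF3, another evening complex protein, by 0.70 ± 0.12. The further rises were in BOA (1.09), FKF1 (0.76, lost without wild-type library 2) and PRR5 (0.75, lost without mutant library 2). PRR9, a pseudo-response regulator of the morning, went the other way, with 317, 387 and 310.1 normalized reads in the wild-type libraries and 241, 149 and 221 in prmt4a;4b. Its groups did not overlap (log2 change -0.74 ± 0.19, adjusted p = 0.0110), although the call was lost without mutant library 2. LHY, a morning MYB gene, was called lower with overlapping libraries (2199, 2456 and 1405 against 1412, 894 and 1595 normalized reads), and its call was lost without wild-type library 1 or 2 or mutant library 2.

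FLC, the MADS-box repressor of flowering, was the flowering gene with the largest rise. It had 65.5, 58.4 and 73.9 normalized reads in the wild-type libraries and 183, 294 and 262 in prmt4a;4b. Every mutant library was at least 2 times every wild-type library, a log2 change of 1.91 ± 0.22 (adjusted p = 0.000153). In all, 3 of 17 tested repressors rose and 2 fell (17.6% and 11.8%, near the shares over all genes), and 1 and 3 did on unscaled library totals. TEM1 (0.64 ± 0.14) and TOE3 (0.62 ± 0.21), AP2-type repressors of FT, rose with calls that were lost without wild-type library 1 or another single library, while their relatives SNZ (-0.73 ± 0.14) and SMZ (-0.83 ± 0.25) fell. Among 10 genes that promote flowering, none rose and 2 fell, SPL15 (-1.07 ± 0.31), a squamosa-promoter-binding factor, and AGL24 (-1.14 ± 0.47), a MADS-box gene whose call was lost without wild-type library 1 or 3 or mutant library 3. None of 8 genes of the autonomous pathway, which lowers FLC, was called (median -0.05).

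Light signaling genes moved in both directions, with 7 rising and 2 falling of 31 (22.6% and 6.45%, beside 13.8% and 12.0% of all genes). On unscaled library totals 4 rose and 4 fell. FHY1, which carries phytochrome A into the nucleus, had 25.5, 18.9 and 35.3 normalized reads in the wild-type libraries and 73.03, 80.8 and 104 in prmt4a;4b. Its homologue FHL rose as well (log2 change 2.05 ± 0.44, against 1.71 ± 0.31 for FHY1). PAR1, an atypical bHLH protein of shade responses, rose by 1.15 ± 0.22, the B-box gene BBX21 by 0.87, PIL1 by 1.17 and the blue-light receptor gene PHOT1 by 0.63, the last 2 with calls lost without mutant library 2 (PIL1, also wild-type library 1 or 2) or 3 (PHOT1). The pair HY5 and HYH, bZIP factors that promote light development, split: HY5 rose from 586, 505 and 484 to 905, 752 and 925 normalized reads and HYH fell from 461, 391 and 394 to 178, 131 and 209.9. Both had separate groups, with log2 changes of 0.71 ± 0.13 and -1.27 ± 0.18. PHOT2, the second phototropin gene, fell by 0.73 on the log2 scale, from 6031, 5627 and 4808 to 3639.8, 2924 and 3342.

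Among 32 genes of salt, drought, cold and abscisic acid responses, 8 rose and 3 fell (4 and 7 on unscaled library totals), with a median of 0.05. The cold-induced genes KIN2 (log2 change 1.04 ± 0.16), KIN1 (0.99 ± 0.15) and COR47 (0.99 ± 0.16) rose, as did HKT1, a sodium transporter gene (1.03). KIN1 and KIN2 are near-identical neighbours between which reads can be split. SOS2 (0.63), a kinase of salt tolerance, the phosphatase genes ABI1 (0.63) and ABI2 (0.61), which hold abscisic acid signaling back, and the dehydrin gene RAB18 (0.59) were called as well, but each lost its call without wild-type library 1 or 2. LTI65 (-1.06 ± 0.26), the bZIP gene ABI5 (-0.95 ± 0.27) and COR15B (-0.76 ± 0.25), all induced by abscisic acid or cold, fell. LTI65 and COR15B had overlapping libraries, and COR15B was lost without wild-type or mutant library 3.

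Most genes of specialised metabolism, phosphate starvation and defence were not called, as among all genes, of which 25.8% were called. The shares that fell were 21.7% for glucosinolate synthesis and 30.8% for phosphate starvation, and 15.4% for salicylate and 15.8% for jasmonate, near the 12.0% of all genes. In glucosinolate synthesis 1 of 23 rose and 5 fell (median -0.32). MYB34, a regulator of indole glucosinolates, had 1107, 1153 and 1055 normalized reads in the wild-type libraries and 617, 531 and 526 in prmt4a;4b. No library overlapped (log2 change -0.99 ± 0.12, adjusted p = 0.000194). CYP79B3, which makes indole-3-acetaldoxime, fell by 0.84 on the log2 scale and the sulfotransferase gene SOT18 by 0.93, with CYP79F1 and UGT74C1 the other falls, whereas CYP83B1, which uses the same aldoxime, had a log2 change of 0.59 ± 0.16 whose call was lost without wild-type library 1 or 2 or mutant library 1. In phenylpropanoid and flavonoid synthesis none of 25 rose and 4 fell (median -0.29), a share of falls near that of all genes. F3H, the flavanone 3-hydroxylase, went from 1194, 1126 and 1375 to 628, 463 and 378 normalized reads and C4H, the second enzyme of the pathway, from 4525, 4504 and 4092 to 2057, 2309 and 2399. The groups were apart for both (log2 changes -1.33 ± 0.17 and -0.96 ± 0.11), and PAL2 (-0.78 ± 0.11) and 5MAT (-1.58) fell as well. Of 13 genes of phosphate starvation, 4 fell, PS2 (-2.58), MGD2 (-1.28 ± 0.28), which makes galactolipids, SQD1 (-0.83 ± 0.11), which makes sulfolipids, and the purple acid phosphatase gene PAP12 (-0.60 ± 0.13, lost without wild-type library 1 or mutant library 1). SPX1 was called higher with overlapping libraries. Of 13 salicylate and defence genes 2 fell, ICS1 (-0.77 ± 0.18), the main enzyme of salicylate synthesis, and WRKY70, which was lost without wild-type library 2. PR1 had 1.82, 1.58 and 2.21 normalized reads against 42.4, 3.99 and 0 in the mutant, and its call was lost without mutant library 1 or any wild-type library. Of 19 jasmonate genes none rose and 3 fell, JAR1 (-0.75 ± 0.12), which conjugates jasmonate to isoleucine, JAZ2 (-0.79 ± 0.19) and LOX2, which overlapped and lost its call without most single libraries. On unscaled library totals the falls in these lists numbered 13 for glucosinolates, 11 for phenylpropanoids, 5 for phosphate, 3 for salicylate and 6 for jasmonate.

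Genes for ribosomal proteins encoded in the nucleus fell more often than the average gene, 96 of 287 falling and 18 rising (33.4% and 6.27%, median log2 change -0.25). Of all genes 12.0% fell and 13.8% rose. AT3G45030 had 1959, 2079 and 1568 normalized reads in the wild-type libraries and 457, 589.7 and 574 in prmt4a;4b. AT5G62300 and AT3G44010, also of the small subunit, had log2 changes of -1.68 ± 0.12 and -1.54 ± 0.11, and no library overlapped in any of the 3. AT3G45030 and AT5G62300 encode the same protein family member, S20e, and reads may be split between such copies. Those that rose included AT5G60670 (0.82 ± 0.13) and RPL27AB (0.71 ± 0.12). Photosynthesis genes, among the most abundant in the libraries, split: 7 of 18 rose and 3 fell (38.9% and 16.7%, or 4 and 5 genes on unscaled library totals). LHCB1.2, a light-harvesting protein of photosystem II, went from 362235, 308205 and 360565 to 674969, 585038 and 720568 normalized reads, while LHCB5, a minor antenna protein of the same photosystem, went from 126550.0, 117363 and 101347 to 57438, 48950.0 and 54094. Both changes were larger than the spread of the libraries (log2 changes 0.94 ± 0.17 and -1.11 ± 0.15), and the other members called were LHCA2, LHCB1.1, LHCB1.3, LHCB2.1, LHCB2.2 and LHCB6, which rose, and LHCB3 and RBCS1B, which fell. LHCB1.1 and RBCS1B lost their calls without mutant library 3, and reads may be split between the near-identical LHCB1 copies.

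Of genes taken as Aux/IAA proteins 38.5% rose and 7.69% fell, and of type-A response regulators 37.5% and 0.0%, beside 13.8% and 12.0% of all genes. For genes taken as auxin response factors the shares were 5.88% and 17.6%. Of 26 genes that the search for Aux/IAA proteins, repressors of auxin responses, took, 10 rose and 2 fell (median 0.30; 6 and 3 on unscaled library totals), and 1 of those that fell, MP, is the auxin response factor MONOPTEROS and not an Aux/IAA protein. ATAUX2-11 had 186, 219 and 260.4 normalized reads in the wild-type libraries and 585, 607 and 623 in prmt4a;4b. SHY2 rose from 157, 207 and 182 to 417, 466 and 437 normalized reads, and IAA16 from 7374, 6531 and 8993 to 16412, 14247 and 17008. None of the 3 had overlapping libraries (log2 changes 1.45 ± 0.15, 1.27 ± 0.15 and 1.06 ± 0.14). Of 17 genes taken as auxin response factors, of which 2 that were not called are ADP-ribosylation factors, ARF6 rose (0.61 ± 0.13, lost without several single libraries) and AT1G59750 (ARF1), ARF8 (-0.80 ± 0.15) and MP (-0.63 ± 0.16, lost without wild-type library 2 or mutant library 3) fell. ARF1 had 2136, 2008 and 1971 normalized reads against 1154, 1218 and 1089.6 in the mutant. Of 8 type-A response regulators, which dampen cytokinin signaling, ARR6 (1.80 ± 0.35), RR5 (1.36 ± 0.34) and ARR9 (0.75 ± 0.17, lost without mutant library 3) rose and none fell, with a median of 0.52, while on unscaled library totals 2 rose and 1 fell.

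**Figure D2:**
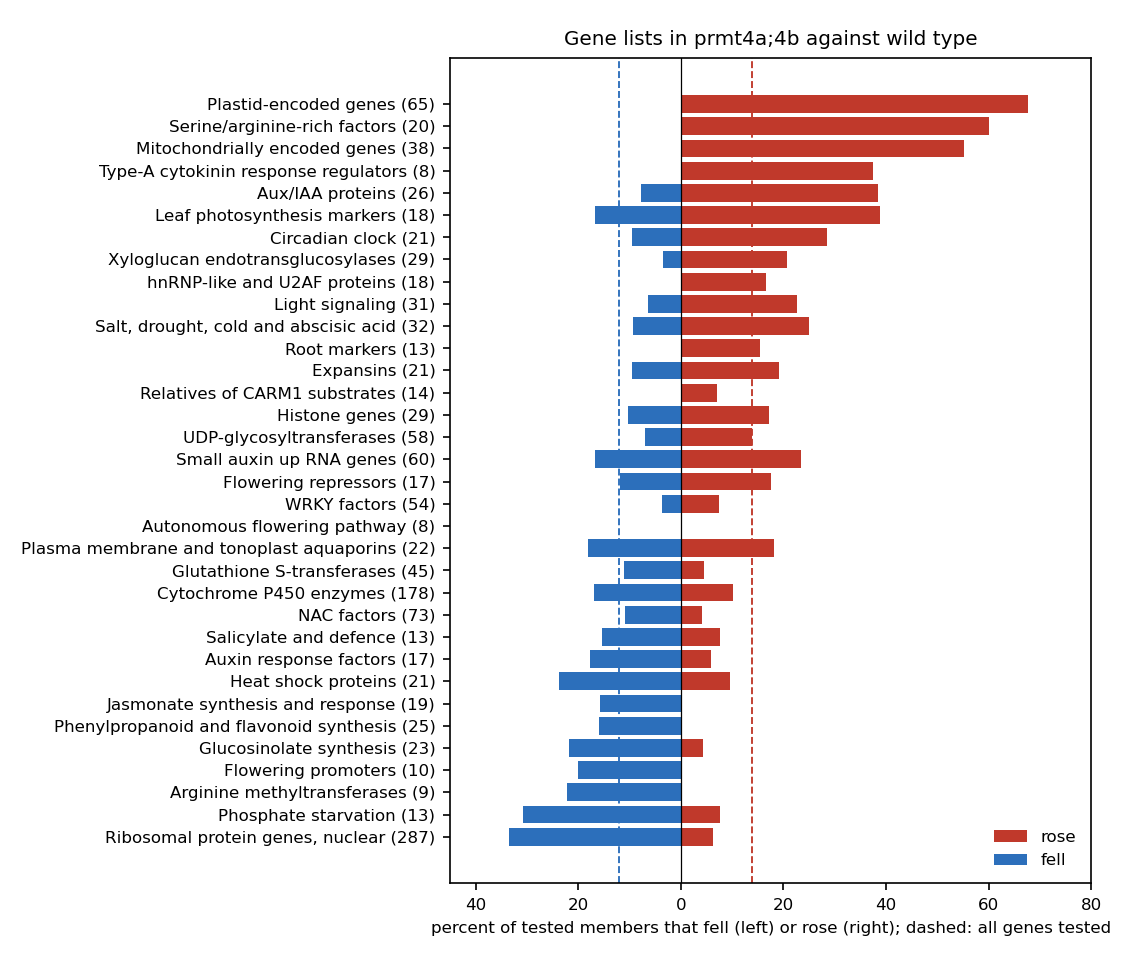
Percent of the tested members of each gene list with at least 8 tested members that fell (blue, to the left) or rose (red, to the right) in prmt4a;4b, with the number tested in brackets and the shares over all genes as dashed lines (12.0% fell, 13.8% rose). Organelle genes and SR proteins lie furthest to the right and nuclear ribosomal protein genes furthest to the left; on unscaled library totals the clock, flowering repressor, salt and photosynthesis lists had more falls than rises.

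Genes of the organelles and genes for small nucleolar RNAs and microRNAs mostly rose, in libraries that had been purified for poly(A) tails. Of 65 plastid genes 44 rose and none fell (median 1.75), and of 38 mitochondrial genes 21 rose and none fell (median 1.25). Of these calls, 25 plastid and 12 mitochondrial ones were kept whichever library was left out. The plastid share was highest in mutant libraries 1 and 3 (2.55% and 3.94%) and 0.869% in library 2, still above every wild-type library. Of 17 small nucleolar RNAs tested 9 rose and none fell, of 16 microRNA genes 10 rose and 1 fell, and of 96 other non-coding RNA genes 35 rose and 11 fell, beside 13.2% rising and 12.1% falling among 20038 protein-coding genes. How far these RNA classes and the yield of the poly(A) purification moved together was not tested.

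The third genotype of the study, prmt5, shares the wild-type libraries, so the mutants were set against each other directly in a fit of 9 libraries. That test separated 17.8% of 21193 genes, with 8.37% higher and 9.39% lower in prmt4a;4b. PRR9 was lower than in prmt5 by 1.59 on the log2 scale (adjusted p = 8.74e-05), having changed by -0.74 in prmt4a;4b and by 0.80 in prmt5 against the same wild type. F3H (-1.33 and 0.20) was lower than in prmt5 by 1.58 (adjusted p = 0.000154), and MRD1 (-6.71 and 0.76) by 7.52. FLC was higher than in prmt5 by 1.27 (1.91 and 0.60, adjusted p = 0.00167) and SHY2 by 1.13 (1.27 and 0.10). PHOT2 (-0.73 and 0.10) and AT1G59750 (-0.82 and 0.15) were lower by 0.88 and 1.01. EXPA18, an expansin gene of root hairs, rose in both, less in prmt4a;4b (0.78) than in prmt5 (1.56, difference -0.83, adjusted p = 0.00839). For SCL33 the direct difference was 0.40 (adjusted p = 0.0674), under the limit of 0.58, and for RS2Z32 it was -0.03 (adjusted p = 0.906).

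Splicing changed at many sites, and retained introns were more often higher than lower. The splicing index of a bin or intron, its read density over that of its gene, was compared between the genotypes together with its reads, and a feature was called at an adjusted p below 0.15 when reads and index changed in the same direction by more than 0.58 on the log2 scale. Only features with an index over 0.05 in either genotype were evaluated. A mean of 5 reads was likewise needed in either genotype, so a feature near 0 in 1 genotype was evaluated through the other alone. Below, this is marked only for features whose reads are given. Of 4080 AS bins, 754 were higher and 581 lower (18.5% and 14.2%), and of 10996 constitutive introns 1682 were higher and 1137 lower (15.3% and 10.3%). Retained introns were the most one-sided class, with 254 higher and 75 lower of 1089 (23.3% and 6.89%, or 30.2% together), followed by bins with mixed events, 155 and 76 of 664 (23.3% and 11.4%). Alternative 3' splice sites leaned the other way, with 199 higher and 280 lower of 1362 (14.6% and 20.6%). Alternative 5' splice sites (96 and 100 of 616) and skipped exons (50 and 50 of 349) were balanced. Of the 1335 AS bins and 2819 introns called, 669 and 788 were kept whichever library was left out, and on unscaled library totals 537 AS bins were higher and 680 lower and 1111 introns higher and 1516 lower, so that the balance of both turned with the scaling. Among retained introns it did not, with 182 higher and 100 lower on plain totals, nor among alternative 3' sites, with 142 and 311. The median log2 ratio of the index, in which the library scaling cancels, was 0.33 for retained introns, 0.18 for constitutive introns, 0.25 for mixed events and -0.08 for alternative 3' sites.

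**Figure D3:**
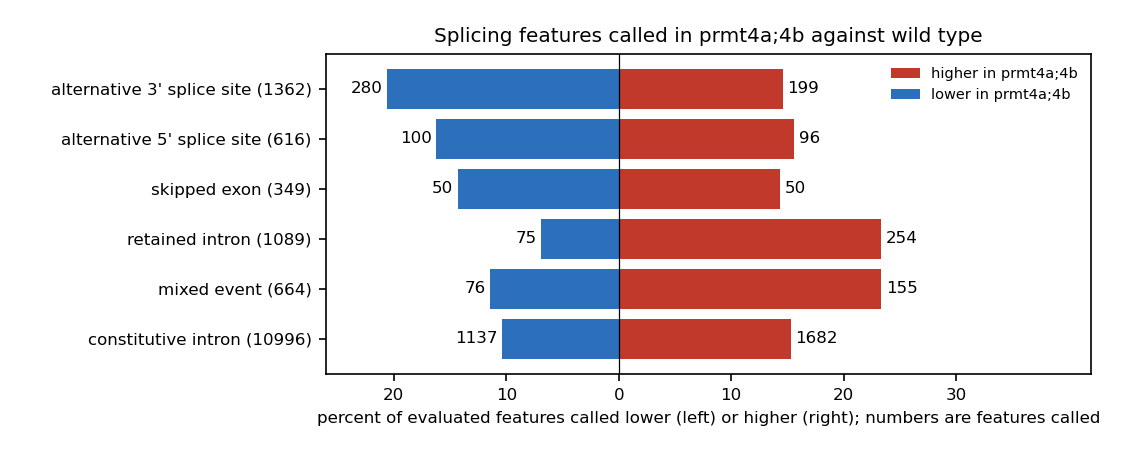
Percent of evaluated splicing features called lower (blue, left) or higher (red, right) in prmt4a;4b, by class, with the number evaluated in brackets and the number called beside each bar. Retained introns were higher in 254 and lower in 75 of 1089 cases, and alternative 3' splice sites lower in 280 and higher in 199 of 1362; on unscaled library totals these were 182 and 100 and 311 and 142, while more constitutive introns were lower (1516) than higher (1111).

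The sequences of the features on which the account below turns are given first, read from the RefSeq copy of the TAIR10 genome, 5' to 3' on the gene's strand. At the ends of introns, capitals mark the last 3 exon bases before the donor site, followed by 8 intron bases, and the first 3 exon bases after the acceptor site, preceded by 15 intron bases. In whole introns, capitals mark 12 exon bases on each side. In alternative sites, capitals mark the segment between the 2 competing splice sites, and in exons the exon itself.
ILA intron I064 donor, chr1:24082721-24083384, minus strand: TAAgtatgaat
ILA intron I064 acceptor: attgccacgcgtcagATG
ILA intron I063 donor, chr1:24082065-24082538, minus strand: GATgtaatctg
ILA intron I063 acceptor: cagattcattttcagTTT
AT3G17100 retained intron donor, chr3:5831384-5831465, plus strand: CAGgtaattat
AT3G17100 retained intron acceptor: attccatctacacagATC
AT3G52120 intron I002 donor, chr3:19329631-19330106, plus strand: TTGgtaatgcc
AT3G52120 intron I002 acceptor: ataagtgatatgcagCAC
AT5G63460 intron I009, chr5:25414449-25414573, minus strand: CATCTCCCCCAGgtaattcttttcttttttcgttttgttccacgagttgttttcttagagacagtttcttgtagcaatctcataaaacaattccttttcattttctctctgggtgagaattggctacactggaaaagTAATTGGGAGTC
AT5G63460 exon E007, chr5:25414413-25414448, minus strand: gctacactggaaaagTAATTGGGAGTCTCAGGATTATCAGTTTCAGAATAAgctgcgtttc
AGO1 intron I008, chr1:17887508-17887606, minus strand: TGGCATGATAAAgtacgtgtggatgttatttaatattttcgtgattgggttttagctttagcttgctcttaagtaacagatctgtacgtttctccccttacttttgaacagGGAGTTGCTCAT
PSAE-1 intron I001, chr4:14203059-14203159, minus strand: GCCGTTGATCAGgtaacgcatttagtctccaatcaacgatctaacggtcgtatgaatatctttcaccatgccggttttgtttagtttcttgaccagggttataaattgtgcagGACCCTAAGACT
XI-I exon E005, chr4:16003602-16003658, minus strand: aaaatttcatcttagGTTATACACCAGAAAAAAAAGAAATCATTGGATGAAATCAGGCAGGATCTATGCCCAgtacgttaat
RCF3 exon E008, chr5:21517971-21518097, plus strand: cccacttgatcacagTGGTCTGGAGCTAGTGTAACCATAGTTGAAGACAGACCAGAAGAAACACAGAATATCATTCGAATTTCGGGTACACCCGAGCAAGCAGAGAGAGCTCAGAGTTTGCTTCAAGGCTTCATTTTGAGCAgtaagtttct
PRP39 exon E010, chr1:1054465-1054528, plus strand: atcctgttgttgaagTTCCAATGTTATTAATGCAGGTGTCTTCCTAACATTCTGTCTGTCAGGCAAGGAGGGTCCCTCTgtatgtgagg
AT5G17010 alternative 3' segment, chr5:5591810-5591818, minus strand: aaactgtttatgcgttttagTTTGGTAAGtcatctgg
ETFBETA alternative 3' segment, chr5:17453804-17453813, plus strand: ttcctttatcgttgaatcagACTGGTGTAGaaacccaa
HOL1 alternative 5' segment, chr2:18185018-18185022, minus strand: tccaactcGTAAGgtacaatagaag
The ILA, AT3G17100, AT3G52120 and AT5G63460 features gained reads in prmt4a;4b, the AGO1 and PSAE-1 introns lost them, the XI-I exon gained reads, the RCF3 and PRP39 exons lost them, and the 3 alternative segments were lower. Both 3' segments end in AG and the 5' segment begins with GT, so that the competing sites lie at most 10 bases apart. Except for the intron of AT3G17100, all lie within the coding span.

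Among called constitutive introns that averaged 20 reads or more in 1 genotype and did not overlap, the largest rise of the index was in ILA (AT1G64790, ILITYHIA), a HEAT-repeat protein of plant immunity and translation control. Intron I064, of 664 bases, had 2, 3 and 1 reads in wild type and 111, 157 and 153 in prmt4a;4b, and its splicing index was 0.0129, 0.0177 and 0.008696 in wild type and 0.972, 1.11 and 1.27 in prmt4a;4b. The neighbouring intron I063, of 474 bases, had 1, 3 and 0 reads in wild type and 77, 70 and 56 in prmt4a;4b. Both were close to absent in every wild-type library and near the density of the exons in every mutant library, with log2 changes of 6.30 ± 0.42 (adjusted p = 5.87e-11) and 5.81 ± 0.52 (adjusted p = 5.17e-08). They passed the minimum of 5 reads through the mutant alone. The other 59 introns of the gene had at most 11 reads in any wild-type library and 7 in any mutant library, and the gene itself was not called (log2 change 0.04). Intron I064 is the first of the gene in the direction of transcription and I063 the next.

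AT3G17100, a bHLH-type transcription factor gene, retained an intron of 82 bases outside its coding span. The intron had 9, 4 and 6 reads in wild type and 21, 43 and 34 in prmt4a;4b, and its index rose from 0.0621 ± 0.02597 to 0.6097 ± 0.146 (SD, n = 3). The groups did not overlap (adjusted p = 0.000593), while the gene fell by 0.73 on the log2 scale. AT5G63460, a SAP-domain protein gene that fell by 0.77, gained both an exon of 36 bases, E007, with 2, 2 and 0 reads in wild type and 5, 14 and 9 in prmt4a;4b, and the 125-base intron I009 beside it, with 2, 6 and 0 reads in wild type and 11, 19 and 15 in prmt4a;4b. The adjusted p was 0.0193 and 0.00889, and 3 other AS bins of this gene were not called. Exon E007 and intron I009 passed the minimum of 5 reads through the mutant alone. Its intron I001 was called lower with overlapping libraries and was lost without 4 of the 6 libraries in turn. In PRR9 the intron I007 was lower, with 6, 9 and 11 reads in wild type and 2, 2 and 3 in prmt4a;4b, but its adjusted p of 0.141 was lost whichever library was left out. These 3 genes were followed by the study with RT-PCR, and are given here for that reason. The PRR9 intron passed the minimum of 5 reads through wild type alone.

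Further constitutive introns with more retention were in AT3G51950, a CCCH zinc finger gene, with introns I008 (index 0.0481 ± 0.0236 to 0.332 ± 0.113) and I009 (0.0564 ± 0.0299 to 0.383 ± 0.134), in OTLD1 (I013, 0.0302 ± 0.00665 to 0.189 ± 0.121), a deubiquitinase gene that fell by 0.69, and in LRS1 (I001, 0.0681 ± 0.0541 to 0.432 ± 0.0582), where another gene overlaps the intron. Of 2 more among the largest rises, PSBQA intron I001 had 55, 59 and 62 reads in wild type and 83, 1330 and 1291 in prmt4a;4b, so that mutant library 1 lay near wild type and the call was lost without library 2 or 3, and NAP1;1 intron I010 had 8, 2 and 1 reads in wild type and 50, 5 and 15 in prmt4a;4b and lost its call without mutant library 1. The NAP1;1 intron passed the minimum of 5 reads through the mutant alone.

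Other introns had less retention. In AT5G02940, an ion channel gene of the POLLUX family, intron I014 had 19, 55 and 16 reads in wild type and 0, 1 and 0 in prmt4a;4b. AGO1, the argonaute protein that carries microRNAs, had 26, 18 and 25 reads in wild type and 2, 1 and 2 in prmt4a;4b on intron I008, and AT2G42220 had 41, 70 and 20 reads in wild type and 6, 2 and 10 in prmt4a;4b on intron I005. The log2 changes were -5.76 ± 0.84, -3.47 ± 0.63 and -2.51 ± 0.50, and only introns whose groups were apart were named here. The AT5G02940 and AGO1 introns passed the minimum of 5 reads through wild type alone. Y14, a subunit of the exon junction complex, had 169, 7 and 10 reads in wild type and 4, 3 and 4 in prmt4a;4b on intron I001. It passed the minimum of 5 reads through wild type alone, and without wild-type library 1 the intron was not called.

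The skipped exons named for the largest falls of the index were in genes for RNA-binding or splicing proteins. Those named for the largest rises were in other genes, and splicing genes were not counted among all called exons. The RCF3 exon E008, in a KH-domain RNA-binding protein of stress responses, had 48, 44 and 30 reads in wild type and 3, 14 and 6 in prmt4a;4b, and its index fell from 2.71 ± 0.0702 to 0.534 ± 0.363. PRP39, a component of the U1 particle that recognises donor sites, lost exon E010, with 43, 75 and 50 reads in wild type and 8, 20 and 18 in prmt4a;4b. SR34a lost a 245-base exon outside the coding span, from 0.226 ± 0.0643 to 0.0606 ± 0.0124, while the gene itself rose by 0.82. The opposite was seen for exon E005 of the myosin gene XI-I, with 4, 5 and 2 reads in wild type and 17, 38 and 24 in prmt4a;4b, and an index that rose from 0.518 ± 0.0962 to 4.097 ± 1.22, and for exon E003 of PAT1, a GRAS factor of phytochrome A signaling (0.1999 ± 0.0525 to 0.844 ± 0.172). The XI-I exon passed the minimum of 5 reads through the mutant alone. The 5 exons were named among those without overlapping libraries, a condition that 38.7% of all skipped exons evaluated met. AT3G61010 had the most called features, 9 of 14, of which 8 were higher, and the gene was not called (log2 change -0.04).

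At alternative sites the segment was often a few bases long, and because reads that touch so short a bin are counted in it, its index exceeds 1 and is comparable only between libraries. AT5G17010, a transporter gene, used the upstream 3' site of a 9-base segment far less, with 70, 65 and 31 reads in wild type and 7, 6 and 2 in prmt4a;4b. ETFBETA, the electron transfer flavoprotein of mitochondria, had 41, 51 and 28 reads in wild type and 13, 0 and 2 in prmt4a;4b on a 10-base segment, and HOL1, a methyltransferase that makes methyl halides, 884, 989 and 750 reads in wild type and 290, 340 and 322 in prmt4a;4b on a 5-base segment. The log2 index ratios were -3.22, -2.91 and -1.86. No libraries overlapped in any of the 3, which was a condition for naming the first 2. In AT5G45190, a cyclin family gene, a 7-base 3' segment (5, 11 and 8 reads in wild type and 12, 33 and 33 in prmt4a;4b) and a 2-base 5' segment (5, 10 and 8 reads in wild type and 11, 33 and 33 in prmt4a;4b) were both higher. Their counts are near-equal, and whether the same reads were counted in both was not tested. A defence regulator gene, LSD1, had 4, 16 and 0 reads in wild type and 26, 26 and 18 in prmt4a;4b on a 3-base segment, while the gene fell by 0.72. Segments of exactly 3 bases, as at tandem AG sites, were lower in 72 and higher in 38 of 306 cases (23.5% and 12.4%), beside 20.6% and 14.6% over all alternative 3' sites. Of the retained introns named for falls, FAB1 had the largest (log2 index ratio -2.77), with 49, 71 and 13 reads in wild type and 2, 19 and 5 in prmt4a;4b. Its reads overlapped between the genotypes, although its indices did not. GSTU9 (-2.40) had 22, 22 and 24 reads in wild type and 3, 2 and 3 in prmt4a;4b, and passed the minimum of 5 reads through wild type alone. AT3G53980 (-2.35) had 293, 542 and 403 reads in wild type and 72, 104 and 98 in prmt4a;4b. The AT3G53980 bin is only 25 bases long and had a mean index of 2.76 in wild type. Whether its reads come from a retained intron was not tested.

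**Figure D4:**
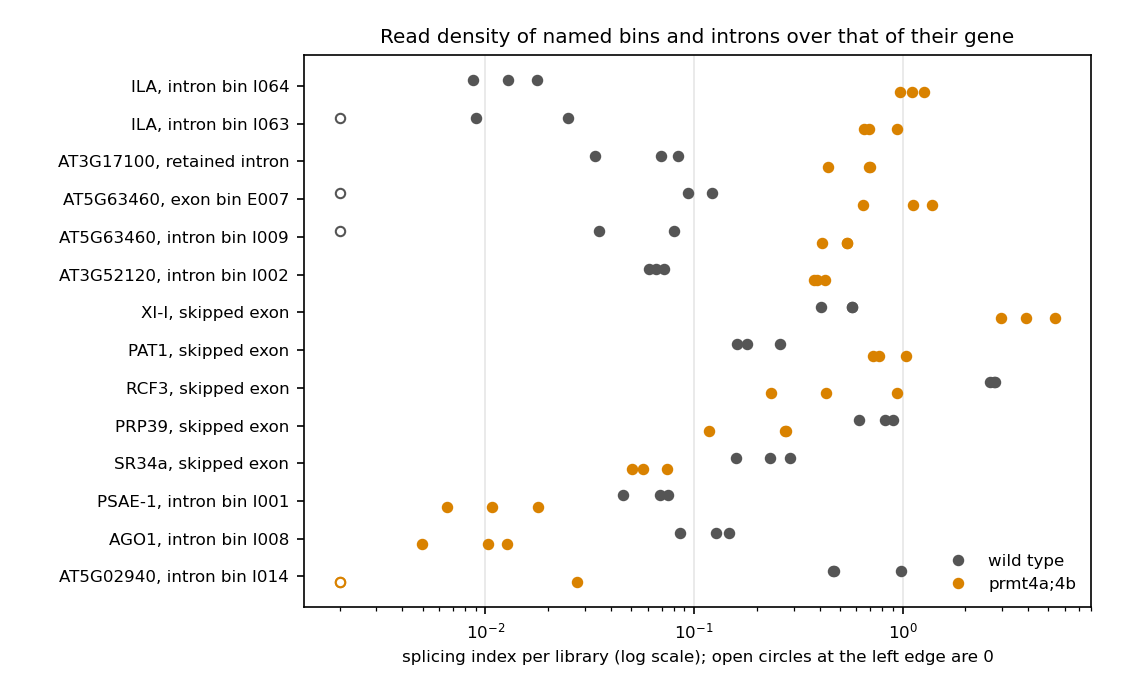
Splicing index, the read density of a bin or intron over that of its gene, on a log axis in each of 3 wild-type (grey) and 3 prmt4a;4b (orange) libraries for 14 named features; open circles at the left edge are libraries at 0. The 2 ILA introns are near 0.01 in wild type and near 1 in the mutant. In no feature shown do the genotypes overlap, which was a condition for naming many of them.

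Introns that gained and lost retention differed in length, place and donor sequence. Constitutive introns called higher had a median length of 133 bases, those called lower 94 and all evaluated 101. Of the higher ones 27.5% were the first intron of their gene and 17.1% lay outside the coding span, against 12.1% and 5.46% of the lower ones and 18.7% and 8.92% of all. At the donor site the last exon base was G in 74.0% of the higher and 85.2% of the lower introns (81.0% of all), and the base before it was A in 60.2%, 72.6% and 66.3%. The fifth intron base was G in 47.2%, 42.1% and 45.4%. Retained introns of the AS class called higher lay outside the coding span in 56.7% of cases against 22.7% of those called lower and 37.8% of all, and their GC content was 34.5% against 42.3% and 36.3%. Called introns differ from the rest in read depth as well, with median normalized reads of 4.48 in wild type and 15.2 in the mutant for the higher and 13.2 and 3.56 for the lower, so these shares are descriptions of the called sets. Most genes with a called intron had 1 (1943 genes), and among those with more, 144 had all higher, 100 all lower and 148 both.

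Called features in genes of the lists are given as single examples, beside 16.2% higher and 11.4% lower over all 15076 AS bins and introns. In GRP7, a glycine-rich RNA-binding protein that controls its own splicing, the retained intron had 4170, 3544 and 4149 reads in wild type and 9524, 12788 and 8821 in prmt4a;4b, and the index rose from 3.27 ± 0.339 to 7.28 ± 0.437 (adjusted p = 8.18e-06). All 3 evaluated bins of its paralogue GRP8, of the mixed class, were higher as well. The GRP7 bin was denser than its gene in both genotypes, and whether its reads come from a retained intron was not tested. Among SR genes, 12 of 19 with an evaluated feature had a called one (63.2%, against 41.5% of all genes with an evaluated feature). Both levels were called in 7 of them (36.8%, against 9.52%). These 19 genes held 69 evaluated features, where all 7544 genes held 15076, and a gene with more features reaches a call sooner. Of the 69 features, 9 were higher and 7 lower, both under the share over all features. The gene shares were not tested with the number of features held equal. SR34 used an upstream 3' site of a 4-base segment less (178, 310 and 214 reads in wild type and 65, 104 and 72 in prmt4a;4b), and its intron I014 was lower (0.213 ± 0.0292 to 0.07099 ± 0.0207). RSZ22 intron I005 was higher (0.0735 ± 0.0189 to 0.133 ± 0.0254) as the gene rose by 0.84. The 3' segment E014 of PTB3, a polypyrimidine tract-binding protein, went from 9.83 ± 5.79 to 28.4 ± 5.02 and the 5' segment E018 of U2AF65A from 7.43 ± 1.201 to 12.1 ± 0.965. In PRMT10 a 3' segment was lower (11.5 ± 1.91 to 4.27 ± 1.75, adjusted p = 0.00953), and in PRMT1B intron I001 had 2, 0 and 0 reads in wild type and 9, 6 and 5 in prmt4a;4b. The PRMT1B intron passed the minimum of 5 reads through the mutant alone.

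In the clock, LNK2, a coactivator of evening genes, had higher index in a retained intron (E009, 1.95 ± 0.906 to 4.53 ± 0.183) and a 3' segment (E011, 0.736 ± 0.241 to 2.51 ± 0.05602), and its paralogue LNK1 in exon E007 (0.2598 ± 0.129 to 0.937 ± 0.381). RVE4 was higher in a 3' segment (1.84 ± 0.493 to 3.88 ± 0.296). Of 45 features evaluated in 16 clock genes 7 were higher and 4 lower (15.6% and 8.89%), near the share over all features. In light signaling it was 11 and 6 of 62 (17.7% and 9.68%), near that share too, among them PIF5, a phytochrome-interacting factor, with a higher 3' segment (731, 627 and 507 reads in wild type and 1118, 1192 and 1269 in prmt4a;4b) and a higher intron I002 (69, 52 and 33 reads in wild type and 115, 129 and 129 in prmt4a;4b), and its relative PIF4 (E007, 25.6 ± 3.58 to 42.9 ± 2.28). SPA3 intron I003 was lower (3.97 ± 0.448 to 2.16 ± 0.321). Of the flowering repressors MAF2 had a higher intron I003 (1.05 ± 0.0844 to 2.39 ± 0.0495), and of the autonomous pathway FY had a higher retained intron (1.98 ± 0.4503 to 4.099 ± 0.718). The intron bins of LNK2, SPA3, MAF2 and FY had mean indices over 1 in both genotypes. Whether their reads come from retained introns was not tested. Salt and abscisic acid genes had 10 higher and 5 lower features of 51 (19.6% and 9.80%). The salt tolerance gene SOS4 included exon E007 more (0.984 ± 0.2002 to 2.35 ± 0.241), ABF3 intron I001 was higher (0.178 ± 0.0494 to 0.472 ± 0.0666), and the 3' segment E004 of its relative ABF4 was lower (7.800 ± 1.36 to 2.68 ± 0.613). In the proline synthesis gene P5CS1 intron I004 was higher (15, 8 and 11 reads in wild type and 37, 28 and 23 in prmt4a;4b) and intron I012 lower (30, 26 and 27 reads in wild type and 5, 2 and 5 in prmt4a;4b). Intron I012 passed the minimum of 5 reads through wild type alone.

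Gene level and splicing were called together in a minority of genes. Of 7544 genes with an evaluated feature, 3133 (41.5%) had at least 1 called, and 1891 (25.1%) were called at the gene level. Both calls met in 718 genes. Among 811 genes that rose 295 had a called feature (36.4%), among 1080 that fell 423 (39.2%), and among 5653 not called at the gene level 2415 (42.7%). The share was not higher among genes that changed, no test was made of the differences, and 2415 of the 3133 genes with a called feature lay outside the gene-level calls. The shares moved with expression level: of 4 equal groups of genes by expression, in the lowest 26.98% of the genes that fell and 38.9% of those that rose had a called feature, and in the highest 49.4% and 31.2%, beside 35.9% and 52.5% of the genes not called.

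Direction went together in the called sets, in a way that the call itself shapes. Of the 295 genes that rose and had a called feature, 263 had higher features alone, 27 lower alone and 5 both. Of the 423 that fell, 288 had lower alone, 93 higher alone and 42 both. Since the reads of a feature had to change by more than 0.58 beside its index, a feature in a gene that rose reaches a higher call sooner and one in a gene that fell a lower call. With the gene's own counts as the offset of the model, so that only the change beyond the gene was tested, the split turned: in genes that rose 153 features were higher and 157 lower of 1499, where 341 and 36 had been called, and in genes that fell 485 were higher and 191 lower of 2311, where 152 and 404 had been called. In genes not called at the gene level the counts were 2022 and 1207 of 11266 against 1943 and 1278. The median log2 index ratio was 0.10 in genes that rose, 0.13 in genes that fell and 0.18 in the others. Offset and ratio both use the gene counts by which the genes were grouped. This by itself favours higher features in genes that fell and lower ones in genes that rose. Neither split can therefore decide how the directions went together.

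**Figure D5:**
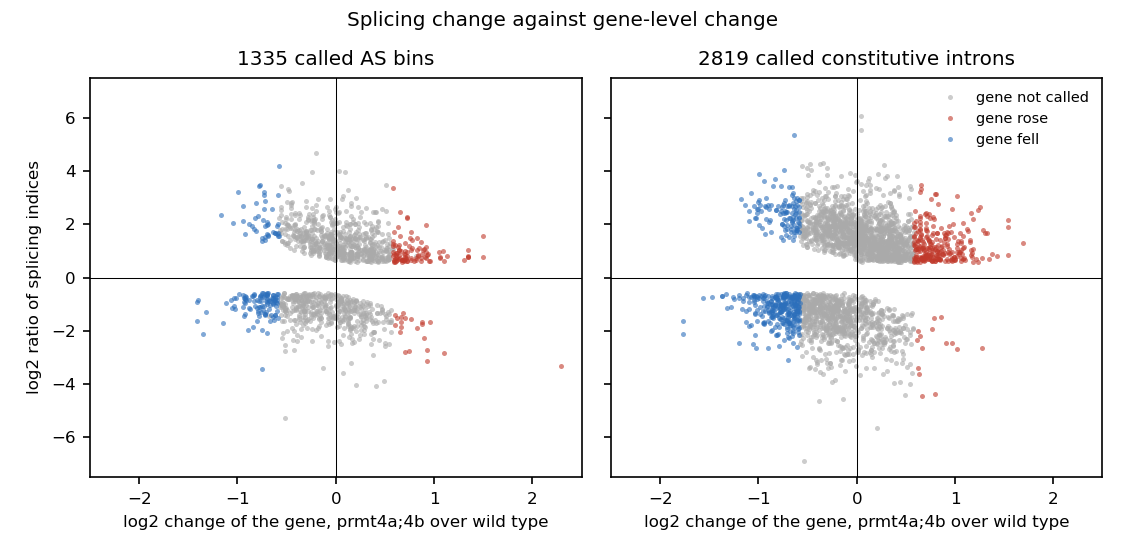
Log2 ratio of splicing indices (prmt4a;4b over wild type) against the log2 change of the gene for each called AS bin (left, 1335) and constitutive intron (right, 2819), coloured by whether the gene rose (red), fell (blue) or was not called (grey). Called features in genes that rose lie mostly above 0 and those in genes that fell mostly below. With the gene's counts as offset this turned to 153 higher and 157 lower in genes that rose and 485 higher and 191 lower in genes that fell. Both splits are shaped by how the calls use the gene's counts.

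Single genes show each combination. GUT15, a non-coding RNA gene, rose from 597, 584 and 827 to 1531, 2022 and 1832 normalized reads, and its intron I001 gained more, with 22, 18 and 26 reads in wild type and 64, 116 and 94 in prmt4a;4b. AT1G22330, an RNA-binding protein gene, rose by 1.09 ± 0.12 with intron I003 at 27, 51 and 26 reads in wild type and 82, 108 and 112 in prmt4a;4b, and AT3G27770 rose from 559, 482 and 718 to 1283, 1538 and 1509 normalized reads with a retained intron at 43, 35 and 34 reads in wild type and 128, 128 and 116 in prmt4a;4b. In these 3 the log2 index ratios were 0.80, 0.73 and 0.66, and the AT3G27770 intron lost its call without wild-type library 3 or mutant library 1.

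PSAE-1, a subunit of photosystem I, rose from 65649.9, 56598 and 67974 to 138409, 106826 and 127203 normalized reads while its intron I001 fell, with 721, 778 and 407 reads in wild type and 111, 276 and 173 in prmt4a;4b. Its index went from 0.0632 ± 0.0155 to 0.0117 ± 0.005705, and the groups of both measures were apart. The same combination was called in HOL1 (gene 0.66 ± 0.14) and in TDT, the tonoplast dicarboxylate transporter (gene 0.66 ± 0.15, intron I001 31, 29 and 14 reads in wild type and 6, 3 and 5 in prmt4a;4b), where the gene-level calls were lost without mutant library 3. The TDT intron passed the minimum of 5 reads through wild type alone.

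AT3G52120, a gene with a SURP domain as found in splicing regulators, fell from 1103, 1221 and 1169 to 568, 593 and 577 normalized reads while its intron I002 rose, with 21, 25 and 20 reads in wild type and 48, 67 and 52 in prmt4a;4b. The index went from 0.06600 ± 0.00517 to 0.397 ± 0.0261, with groups far apart. YAK1, a protein kinase gene, fell by 0.64 on the log2 scale, and its intron I009 had 0, 0 and 0 reads in wild type and 13, 13 and 8 in prmt4a;4b, at least 4.45-fold higher against a floor of 3 reads per library. The YAK1 intron passed the minimum of 5 reads through the mutant alone. AT3G17100, above, belongs to the same set.

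Both fell in AT4G29410, a ribosomal protein gene, with 2651, 2717 and 2304 normalized reads in the wild-type libraries and 1005, 1066 and 946 in prmt4a;4b and a 5-base 3' segment at 323, 399 and 145 reads in wild type and 27, 22 and 13 in prmt4a;4b. The ribosomal protein gene AT3G07110 had a log2 change of -1.17 ± 0.11 with intron I003 at 76, 103 and 63 reads in wild type and 14, 9 and 14 in prmt4a;4b, and MLP423 one of -1.12 ± 0.12 with intron I002 at 43, 61 and 47 reads in wild type and 4, 5 and 8 in prmt4a;4b. Of the 142 ribosomal protein genes with an evaluated feature, 49 had a called one (34.5%, against 41.5% of all genes) and 17 were called at both levels (11.97%, against 9.52%). RP1 (AT1G43170), which encodes ribosomal protein L3, had a log2 change of -0.92 ± 0.12 and had 5 called features of 8, of which 4 were lower.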

How the data were processed

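Poly(A) RNA of whole plants was sequenced after library preparation with 12 PCR cycles. Per the labels, the authors aligned reads to TAIR10 with TopHat2 2.0.9 and worked in R 3.0.2 with edgeR 3.4.2; they deposited whole-number counts of reads per gene, AS bin and constitutive intron, which were used here as deposited, and tables of their own fold changes and false discovery rates, which were not used. No other column of sample values was left aside (0 columns). Counting did not use strand, and PCR duplicates could not be recognised.

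Counts were tested with edgeR 4.0.16 (R 4.3.3): TMM factors, glmQLFit and glmQLFTest over the 6 libraries, Benjamini-Hochberg adjustment over all features tested. Genes needed a mean of 10 reads in either genotype, and were called at an adjusted p below 0.1 and an absolute log2 change over 0.58. Bins and introns needed a mean of 5 reads in either genotype, a gene density over 0.05 reads per base in both genotypes and a splicing index over 0.05 in either. They were called at an adjusted p below 0.15 with log2 change and log2 index ratio both over 0.58 in 1 direction, 0.5 reads being added before the ratio. The limits follow the methods of the study. The contrast with prmt5 came from a fit of all 9 libraries. The wild-type columns of the tables for the 2 mutants were identical. Scripts were tested on simulated counts.

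Named were the mutated genes, the 10 largest called rises and falls without overlap of libraries, outside the organelles and above a minimum count, up to 3 called members of each list in each direction by smallest p, the RT-PCR genes of the study, for each splicing class and direction the largest index ratios without overlap and above a minimum count, and for each combination of gene and splicing direction the 3 genes with the smallest p at both levels; other list members and features were added after their values were seen. All members and lists were chosen with earlier results of these data known. The gene lists are arginine methyltransferases, relatives of CARM1 substrates, SR and hnRNP proteins, clock, flowering, light, salt, glucosinolate, phenylpropanoid, phosphate, salicylate, jasmonate and tissue markers, written by locus, and the families named in the text. The families were found by symbol, gene description or locus pattern. Alternatives were other size factors, filters, limits, DESeq2 1.42.0, a replicate block, gene counts as offset, the fit of 9 libraries and leaving out each library; library totals without scaling factors were added after seeing the data. Replicate numbers did not pair the libraries (correlation of deviations 0.003, 0.123 and 0.002). Of 33602 genes 32835 matched RefSeq TAIR10.1, from which sequences, biotypes and gene products were taken, and 118854 of 120457 introns read there (98.7%) began with GT and ended with AG.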

Additional observations from a re-analysis of the deposited data

How the results depend on the processing

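Of 173 named genes and 61 named features, 113 and 32 kept their direction and call under every alternative run. With library totals and no scaling factors, chosen after seeing the data, 1289 genes rose and 5308 fell, 1111 introns were higher, and 32 named genes lost their call. A limit of 0.05 on the adjusted p gave 488 higher AS bins, 769 higher and 486 lower introns and 436 genes called at both levels, and a log2 index ratio over 1 gave 368 lower AS bins. A minimum of reads in both genotypes left 801 higher and 421 lower introns and 349 genes at both levels, no filter left 747 lower introns, and DESeq2 called 991 higher and 618 lower introns. With the minimum of reads in both genotypes, 37 of the 61 named features were unchanged. Leaving out 1 library at a time gave 2366 to 3266 rises and 2157 to 2779 falls of genes, 583 to 831 higher and 466 to 653 lower AS bins, 1068 to 1777 higher and 751 to 1341 lower introns, and 544 to 935 genes at both levels. The introns evaluated had a median of 7.65 normalized reads in wild type.

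The log2 change of AT3G61010, which was not called, turned from -0.04 to 0.03 without wild-type library 2 and to 0.10 without mutant library 1 (range -0.24 to 0.10), and that of AT5G63460:I003 to 0.27 with gene counts as offset. The cause was not tested. With the replicate number as a block, although the numbers did not pair the libraries, 2905 genes rose and 2494 fell, 717 AS bins were higher and 547 lower, 1370 introns were higher and 869 lower, and 637 genes were called at both levels.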

Other observations

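Among genes of cell growth and of water transport most members were not called, as among all genes, of which 25.8% were called. Of 21 expansin genes, whose proteins loosen cell walls, 4 rose and 2 fell (19.0% and 9.52%), near the 13.8% rising and 12.0% falling of all genes. EXPA16 rose by 1.51 ± 0.30, and the root hair genes EXPA7 (0.84 ± 0.24) and EXPA18 (0.78 ± 0.18) were the 2 of 13 root markers that rose, none falling. EXPA6 fell by 0.96 on the log2 scale. Of 29 xyloglucan endotransglucosylase genes 6 rose and 1 fell (20.7% and 3.45%), EXGT-A3 rising most (1.09 ± 0.12), but on unscaled library totals 1 rose and 4 fell, and 1 and 3 of the root markers. Of 60 genes found as small auxin up RNAs, 1 of which (AT5G01830) is an armadillo-repeat gene, 14 rose and 10 fell (23.3% and 16.7%), and 9 and 13 on unscaled totals. AT1G16510 rose from 90.05, 63.2 and 127 to 393, 275 and 281 normalized reads, without overlap. Of 22 genes found as aquaporins, of which TIP1 (AT5G20350) is an S-acyltransferase, 4 rose and 4 fell (18.2% each), and on unscaled totals 1 and 5. DELTA-TIP, a water channel of the vacuole, had 44994, 39315 and 69819 normalized reads in the wild-type libraries and 87197, 101170.0 and 125202 in prmt4a;4b. PIP3, of the plasma membrane, fell from 19519.6, 20941 and 18879.6 to 8923, 9331 and 10002, and both had groups apart (log2 changes 1.02 ± 0.22 and -1.07 ± 0.12).

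Among stress and detoxification families most members did not pass, as among all genes, of which 13.8% rose and 12.0% fell. Of 54 WRKY genes 4 rose and 2 fell, WRKY11 with a log2 change of -1.21 ± 0.20, and on unscaled totals none rose and 8 fell. Of 73 NAC genes 3 rose and 8 fell (1 and 19 on unscaled totals), ATAF1 rising by 0.77 ± 0.13 and NAM falling by 1.03 on the log2 scale. Of 21 heat shock protein genes 2 rose and 5 fell (9.52% and 23.8%), and 2 and 8 on unscaled totals. HSP93-III, a chaperone of chloroplast import, fell from 5670.3, 5646 and 5653 to 3475, 3137 and 3308 normalized reads, and the small heat shock protein genes HSP17.4 and HSP17.6A rose through mutant library 1 alone. Of 58 glycosyltransferase genes 8 rose and 4 fell (13.8% and 6.90%), and 1 and 14 on unscaled totals. UGT89B1, which acts on flavonols, rose by 0.90 ± 0.14. Of 45 glutathione transferase genes 2 rose and 5 fell (4.44% and 11.1%, or 2 and 13 genes on unscaled totals), GSTF9 among those that fell (-1.08 ± 0.13). Of 178 cytochrome P450 genes 18 rose and 30 fell (7 and 61 on unscaled totals), CYP78A7 rising by 1.29 ± 0.28 and CYP716A1 falling by 1.68. Of 29 histone genes 5 rose and 3 fell (17.2% and 10.3%), and on unscaled totals 3 and 8. HTB9, an H2B gene, had 3218, 2919 and 3239 normalized reads in the wild-type libraries and 5721, 6410.3 and 6453 in prmt4a;4b. The H2A.X genes went apart, H2AXA at 0.99 ± 0.12 and GAMMA-H2AX at -1.02 ± 0.14.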
